A study of Mus musculus with 46 samples.

Results

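The genes described here are 9 transporters that carry metformin, or are candidates to carry it, across cell membranes: the organic cation and carnitine carriers Slc22a2, Slc22a3, Slc22a4 and Slc22a5, the plasma membrane monoamine transporter Slc29a4, the extrusion carrier Slc47a1, the thiamine transporters Slc19a2 and Slc19a3, and the serotonin transporter Slc6a4. They were chosen by gene symbol, 9 of the 45777 symbols in each bulk count table, with earlier results of these data known; the rule itself uses no measured value. The study asked where metformin and imeglimin act alike and where they differ in the intestine. All animals were male C57BL/6J mice, and every drug group had an untreated control group of the same experiment. In the acute experiment, mice were given 600 mg/kg of metformin or of imeglimin once by mouth, or were controls, and colon was taken 6 h later. In the chronic experiment, mice drank water with 3 mg/mL of either drug, or were controls, for 4 weeks, and colon and small intestine, the latter divided into proximal, middle and distal segments, were sampled. This gave 15 groups of 3 libraries, 45 in all. A single-cell experiment on colon after 12 weeks is held in 3 matrices named CT, Ime and Met. They all belong to 1 sample, whose treatment label lists the 3 treatments while its title names control only. Neither the ages of the mice nor whether libraries of a group came from separate animals is stated in the labels, so p-values measure only the spread between these libraries, which may be technical.

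Metformin is a biguanide and a positively charged base at body pH, so it crosses lipid membranes poorly and depends on carriers. Imeglimin is a related compound whose guanidine nitrogens are closed into a triazine ring. Carriers of organic cations let such bases into cells along the membrane potential, and proton-coupled extrusion carriers move them out again. In the intestine the same proteins also handle natural substrates, among them carnitine, ergothioneine, thiamine and monoamines such as serotonin. Thiamine transporters belong with this group because thiamine and metformin compete for some of the same carriers.

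Promoter sequence is shown for 4 of these genes because their levels ran differently along the gut or differed with drug in the results that follow. Each window holds 250 bases before and 50 after the start site and is printed 5′ to 3′ on the gene's strand, from RefSeq with build GRCm38.p6. A window was found for 8 of the 9 genes, all but Slc47a1. Capitals mark matches, on either strand, to 6 motifs: the TATA box, spelled TATAAA, the GC box, spelled GGGCGG, the core of an HNF1 site, spelled GTTAAT, an HNF4 site, spelled CAAAGTCCA, a sterol regulatory element, spelled TCACNCCAC, and an E-box, spelled CACGTG. Overlapping matches were counted separately. Among 32851 promoter windows of the same length, 13.6% held the TATA box, 35.7% the GC box, 7.10% the HNF1 core, 0.475% the HNF4 site, 1.24% the sterol regulatory element and 7.15% the E-box. Slc22a5 lies at chr11:53891654-53891953 on the minus strand, Slc19a2 at chr1:164248796-164249095 on the plus strand, Slc29a4 at chr5:142701851-142702150 on the plus strand and Slc19a3 at chr1:83038399-83038698 on the minus strand.
Slc22a5: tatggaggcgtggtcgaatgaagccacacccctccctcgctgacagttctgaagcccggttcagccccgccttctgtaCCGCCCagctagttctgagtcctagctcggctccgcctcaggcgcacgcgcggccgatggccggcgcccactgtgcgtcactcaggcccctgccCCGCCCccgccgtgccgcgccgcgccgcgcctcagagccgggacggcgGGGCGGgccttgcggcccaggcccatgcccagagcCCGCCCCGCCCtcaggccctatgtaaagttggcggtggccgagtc
Slc19a2: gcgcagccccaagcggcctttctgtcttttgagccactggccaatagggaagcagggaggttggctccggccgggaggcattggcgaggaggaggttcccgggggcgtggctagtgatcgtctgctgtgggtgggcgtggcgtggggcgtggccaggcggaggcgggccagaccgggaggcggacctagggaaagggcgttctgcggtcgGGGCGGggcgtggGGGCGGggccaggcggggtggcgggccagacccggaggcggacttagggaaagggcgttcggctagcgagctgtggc
Slc29a4: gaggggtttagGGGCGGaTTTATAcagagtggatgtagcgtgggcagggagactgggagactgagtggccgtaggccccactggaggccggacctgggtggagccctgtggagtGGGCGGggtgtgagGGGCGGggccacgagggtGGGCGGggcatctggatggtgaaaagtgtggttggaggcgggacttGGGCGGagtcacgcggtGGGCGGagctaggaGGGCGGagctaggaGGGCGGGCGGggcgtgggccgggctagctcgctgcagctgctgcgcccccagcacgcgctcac
Slc19a3: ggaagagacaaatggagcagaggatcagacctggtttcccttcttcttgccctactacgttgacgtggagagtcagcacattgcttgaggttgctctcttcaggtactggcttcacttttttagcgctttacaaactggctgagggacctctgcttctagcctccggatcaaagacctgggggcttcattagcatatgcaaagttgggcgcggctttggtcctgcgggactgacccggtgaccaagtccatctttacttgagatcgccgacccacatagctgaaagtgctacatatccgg
The Slc29a4 window held 9 GC boxes and 1 TATA box on the other strand, the Slc22a5 window 5 GC boxes and the Slc19a2 window 2. The Slc19a3 window held none of the 6 motifs and was the poorest of the 4 in G and C, at 52% against 70% to 72.7%. A match is a run of letters and no evidence of a bound factor.

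Library depth was 31606797 to 47324301 counts. Lactase (Lct) followed the segment labels, averaging 3538 CPM in proximal and 0.210 in colon chronic controls. CPM is the gene's share of a library's counts, scaled by TMM to a common total. The ileal bile acid binder Fabp6 also followed them, averaging 3428 CPM in distal and 0.123 in proximal controls. Among other proximal markers, Gata4 averaged 141 CPM in proximal and 0.294 in colon chronic controls. Slc40a1, also on the proximal list, ran against the labels, at 8.67 CPM in proximal, 62.1 in distal and 194 in colon chronic controls. Colon of both experiments did not match in position markers: Hoxb13, a gene of the last stretch of colon, averaged 305 CPM in chronic and 0.682 CPM in acute controls, while Osr2 averaged 0.170 and 102 CPM. No source used here gives the stretch of colon that was taken. Some libraries stood apart in markers of other cells. Distal control 1 had the lowest summed absorptive colonocyte markers of its group, 3469 CPM against up to 6580. That list was chosen for colon, and of its genes Aqp8 averaged 0 and Car1 0.0613 CPM in distal controls. Chronic colon control 3 had the highest summed pancreatic markers, 16314 CPM against 166 at the lowest. Acute metformin 3 had summed enteric neuron markers of 29.9 CPM where the highest library of that group had 95.2.

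Slc22a2, the organic cation carrier best known from the kidney tubule, was not detected anywhere. It had 0 counts in all 45 libraries, which allows at most 0.0780 CPM per library in the acute colon controls (3 counts), and 0 UMIs (unique molecules) in all 3 single-cell matrices. The other 8 genes were detected, and each differed between the 4 chronic control segments by edgeR's F test, adjusted over all genes. The adjusted p ran from 1.02e-15 for Slc22a4 to 1.27e-05 for Slc29a4. Of all genes tested, 59.2% passed the same test. In bulk tissue, fewer cells of a type and less RNA per cell cannot be told apart.

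On a scale that allows comparison between genes, CPM per kilobase of exon, Slc47a1 was the highest of the 9 in the proximal control small intestine at 41.1, followed by Slc22a5 at 36.9, Slc6a4 at 27.1 and Slc22a4 at 19.3. Slc19a2 at 4.93, Slc19a3 at 2.42, Slc22a3 at 0.977 and Slc29a4 at 0.342 were lower. In chronic control colon the order was another one. Slc22a5 led there at 9.68 CPM per kilobase, Slc6a4 followed at 5.26 and Slc19a2 at 2.68. Slc29a4, the lowest detected gene of proximal tissue, came next at 0.983, above Slc22a4 at 0.848, Slc19a3 at 0.158, Slc22a3 at 0.122 and Slc47a1 at 0.0398. Middle tissue was led by Slc22a5 at 34.6 and distal tissue also by Slc22a5, at 31.2. These orders depend on the gene length used. For Slc6a4 the exons cover 4531 bases, but its longest coding transcript has 2796, where Slc22a5 has 3071 and 3062. The order of Slc6a4 and Slc22a5 in proximal and middle tissue therefore rests on that choice of length.

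**Figure D1:**
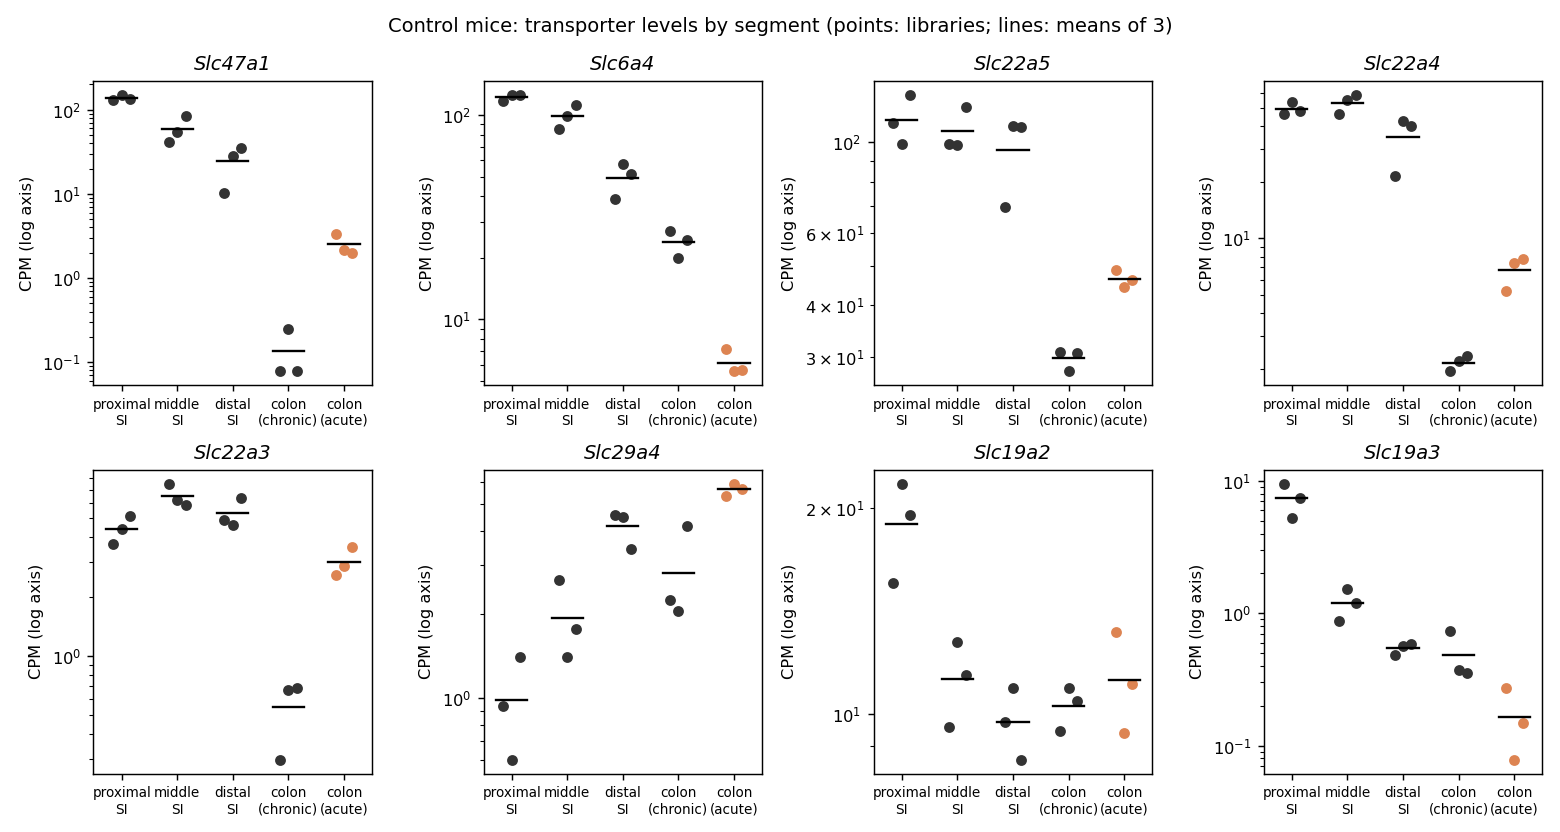
Level of each of the 8 detected transporters (CPM, log axis) in control libraries of 4 chronic segments (dark points) and of acute colon (orange points), with lines at the means of 3. Slc47a1 fell from 139 CPM in proximal small intestine to 0.135 in chronic colon, while Slc29a4 was lowest in proximal tissue at 0.979 CPM.

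Slc47a1 encodes a proton antiporter that moves organic cations, metformin included, out of cells. Its counts gave 132, 150 and 135 CPM in the proximal controls, 41.6, 53.8 and 83.4 in the middle, 10.1, 28.6 and 35.2 in the distal, and 0.0787, 0.247 and 0.0782 in the chronic colon controls, where it had 4, 10 and 4 counts. The 4 segments formed a descending order in which no library overlapped the next segment. Between the ends of that order the ratio of means was 1032, the widest of the 8 genes, and the log2 difference was 10.07 (SE 0.48, edgeR adjusted p = 1.95e-16). Proximal exceeded middle by 1.22 on the log2 scale (SE 0.28, adjusted p = 0.00697) and middle exceeded distal by 1.28 (adjusted p = 0.00268). Those neighbouring steps rested on the spread estimated over all 36 chronic libraries. With the 12 control libraries alone their adjusted p was 0.117 and 0.0760. The first step was lost without middle control 1 (0.0801) and the second without middle control 3 (0.0574). The steps to colon kept their calls in every alternative tried.

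Slc6a4 takes serotonin up from the extracellular space, in the gut mainly into epithelial cells. Proximal controls had 117, 125 and 126 CPM, middle controls 85.3, 98.8 and 112, distal controls 38.7, 57.7 and 51.5, and chronic colon controls 27.2, 19.9 and 24.4. Here too each segment lay below the one before it, without overlap, although the first step was small. Proximal and middle differed by 0.31 on the log2 scale and did not pass the test (adjusted p = 0.393). The fall from middle to distal was 1.01 (adjusted p = 0.000341) and that from distal to colon 1.06 (adjusted p = 3.36e-05).

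Chronic colon lay below every small intestinal segment for the 3 detected SLC22 carriers, Slc22a3, Slc22a4 and Slc22a5. Slc22a5, the sodium-dependent carnitine carrier that also carries organic cations, had 111, 98.8 and 130 CPM in proximal, 98.6, 98.5 and 121 in middle, 69.4, 109 and 108 in distal and 30.8, 27.7 and 30.7 in chronic colon controls. The 3 small intestinal segments overlapped, and none of their 3 pairs passed the test (adjusted p from 0.261 to 0.831). Colon lay below all of them, by 1.94 on the log2 scale against proximal tissue (adjusted p = 5.15e-11).

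Slc22a4, known for uptake of ergothioneine, had 46.4, 53.4 and 47.8 CPM in proximal, 46.1, 55.0 and 58.6 in middle, 21.6, 42.5 and 39.9 in distal and 1.95, 2.20 and 2.35 in chronic colon controls. Its ratio of highest to lowest mean was 24.6, the second widest. Proximal and middle were not separated (adjusted p = 0.803), while distal was lower than proximal by 0.51 (adjusted p = 0.0358) and than middle by 0.62 (adjusted p = 0.0245) on the log2 scale. Both distal differences were lost when distal control 1 was left out, the library with low summed colonocyte markers (adjusted p = 0.285 and 0.212). The first was also lost with no filter (0.0727), with the 12 controls alone (0.0910) and without proximal control 2 (0.129) or 3 (0.0672). The second was also lost with the 12 controls alone (0.107) and without middle control 2 (0.0755) or 3 (0.150). The gap between proximal tissue and colon was 4.52 (adjusted p = 2.36e-16).

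Slc22a3, a carrier of monoamines outside neurons, peaked in the middle of the small intestine at 7.51, 6.19 and 5.85 CPM. Proximal controls had 3.71, 4.39 and 5.13, distal controls 4.93, 4.63 and 6.35, and chronic colon controls 0.295, 0.668 and 0.684. Middle lay above proximal in every library, but that difference did not pass the test (-0.56 for proximal minus middle, adjusted p = 0.320). Proximal tissue exceeded colon by 3.02 (adjusted p = 9.54e-09). With the acute colon controls in place of the chronic ones the difference was 0.55 (adjusted p = 0.113).

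Slc29a4 ran the other way. This carrier of monoamines at the plasma membrane also carries metformin, most strongly in acid. Proximal controls had 0.935, 0.599 and 1.40 CPM, middle controls 2.67, 1.40 and 1.77, distal controls 4.55, 4.49 and 3.44, and chronic colon controls 2.24, 2.05 and 4.15. Distal exceeded proximal tissue without overlap, by 2.09 on the log2 scale (proximal minus distal -2.09, adjusted p = 6.19e-06), and proximal minus colon was -1.52 (adjusted p = 0.000127). The step from proximal to middle was at the threshold (-1.0, adjusted p = 0.0498) and overlapped. It was lost with the replicate block (0.0507), with RLE scaling (0.0544), with no filter (0.0767), with the 12 controls alone (0.202), and without proximal control 1 (0.129), proximal control 2 (0.277), middle control 1 (0.340) or middle control 3 (0.0585). Middle minus distal was -1.09 (adjusted p = 0.0147), lost with the 12 controls alone (0.103) and without middle control 2 (0.102), middle control 3 (0.0825) or distal control 1 (0.0580). Colon and distal were not separated (0.57, adjusted p = 0.114), except without colon control 3, the library with pancreatic markers, where distal was higher by 0.96 (adjusted p = 0.0150). Colon and middle were not separated either (-0.52, adjusted p = 0.144), but the difference passed without middle control 1 (-0.81, adjusted p = 0.0441) and with the acute colon controls in place of the chronic ones (-1.53, adjusted p = 1.78e-05).

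The thiamine transporters were highest at the proximal end. Slc19a3, a thiamine carrier of the apical membrane, had 9.54, 5.27 and 7.46 CPM in proximal, 0.880, 1.52 and 1.2 in middle, 0.486, 0.561 and 0.588 in distal and 0.728, 0.371 and 0.352 in chronic colon controls. All proximal libraries stood above all others, 2.62 above middle tissue on the log2 scale (adjusted p = 2.81e-05) and 3.94 above colon (adjusted p = 1.72e-09). Distal tissue and colon were not separated (adjusted p = 0.767), but with the acute colon controls in place of the chronic ones distal was higher by 1.69 (adjusted p = 0.00943). The step from middle to distal, 1.15, missed the threshold (adjusted p = 0.0590) and passed it with the replicate block (0.0481), with DESeq2 (0.0332) and without middle control 1 (0.0359).

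Slc19a2, the other thiamine carrier, had 15.5, 21.7 and 19.5 CPM in proximal, 9.58, 12.8 and 11.4 in middle, 9.74, 10.9 and 8.58 in distal and 9.45, 10.9 and 10.4 in chronic colon controls. Its span was the narrowest of the 8 genes, 1.94 times from highest to lowest mean. Proximal exceeded middle by 0.75 (adjusted p = 0.00263), distal by 0.96 (adjusted p = 2.05e-05) and colon by 0.89 (adjusted p = 1.68e-05) on the log2 scale. The other 3 segments overlapped and were not separated from each other (adjusted p from 0.457 to 0.760).

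Counted over the 8 tested genes in controls, proximal exceeded middle in 3 and was lower in 1, where 4.37% and 2.33% of all genes did so. Against distal tissue, proximal was higher in 5 and lower in 1 (all genes 15.9% and 12.8%), and against colon higher in 7 and lower in 1 (28.1% and 28.4%). Middle exceeded distal tissue in 3 and was lower in 1 (6.65% and 3.32%). Middle exceeded colon in 6 (25.6%) and distal exceeded colon in 5 (23.6%). In the 4 pairs with a gene on the lower side, it was Slc29a4. The median log2 difference between proximal tissue and colon was 2.70 over the 8 genes and -0.07 over all genes tested.

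The same segment pairs were compared within each drug group. These libraries share the fit, and its estimate of spread, with the control contrasts. In the metformin groups, proximal and middle differed in 3 of 8 genes (11.5% of all genes), proximal and distal in 5 (29.3%), proximal and colon in 7 (54.1%), middle and distal in 3 (12.6%), middle and colon in 6 (48.8%), and distal and colon in 7 (47.9%). In the imeglimin groups the counts were 2 (4.37%), 5 (29.9%), 8 (54.4%), 3 (19.4%), 6 (51.5%) and 5 (48.8%) in the same order of pairs. Slc47a1 in proximal tissue exceeded colon by 9.57 on the log2 scale under metformin and 9.97 under imeglimin. For Slc29a4, proximal minus colon was -0.51 under metformin (adjusted p = 0.158) and -1.38 under imeglimin (adjusted p = 0.000381). Distal exceeded colon for Slc29a4 by 1.19 under metformin (adjusted p = 0.00145), with 3.76, 4.18 and 4.40 CPM against 2.33, 1.64 and 1.45.

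Colon of the acute experiment was another picture from colon of the chronic one. Between their control libraries the ranges did not overlap for 7 of the 8 detected genes. Of 20790 genes at 0.1 CPM or more in either group, 27.2% were higher in acute and 26.7% lower without overlap. Acute exceeded chronic colon for 5 genes: 18.6 times for Slc47a1, 5.46 times for Slc22a3, 3.14 times for Slc22a4, 2.00 times for Slc29a4 and 1.56 times for Slc22a5. It was lower for Slc6a4, at 0.256 times, and for Slc19a3, at 0.343 times. Slc19a2 overlapped, at 11.2 ± 1.89 and 10.3 ± 0.759 CPM (SD, n = 3). The acute libraries gave 3.36, 2.16 and 2.00 CPM of Slc47a1 and 7.11, 5.57 and 5.63 CPM of Slc6a4. The experiment, the table and the position markers given earlier moved with these differences and cannot be told apart, so no test was made. In both sets of colon controls Slc47a1 lay below every proximal, middle and distal control library.

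After the single oral dose, 7 of the 9 genes could be tested in colon. Slc19a3 was too low, at up to 0.311 CPM, and Slc22a2 was absent from the counts. Metformin lowered 2 of the 7, Slc22a3 and Slc29a4, and raised none (8.37% of all genes were lower). Imeglimin raised 2, Slc47a1 and Slc19a2 (18.1% of all genes were higher), and lowered 1, Slc22a3 (15.1% were lower). The median log2 change of the 7 was -0.02 with metformin and 0.12 with imeglimin, and that of all genes -0.04 and -0.03. These drug groups share their control libraries.

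Slc22a3 had 2.57, 2.86 and 3.56 CPM in acute controls, 0.980, 1.96 and 1.23 with metformin and 1.33, 1.89 and 1.42 with imeglimin. Every treated library lay below every control. The log2 change was -1.11 with metformin (SE 0.28, 95% interval -1.73 to -0.49, adjusted p = 0.0191) and -0.93 with imeglimin (SE 0.28, interval -1.54 to -0.32, adjusted p = 0.0253). The metformin call was lost without control 3 (0.0760), metformin 1 (0.0600) or metformin 3 (0.0588). The imeglimin call was lost without control 2 (0.0517), control 3 (0.0927), imeglimin 1 (0.0736) or imeglimin 3 (0.0863). Imeglimin minus metformin was 0.18, with an interval from -0.45 to 0.80. The summed level of 6 lymphatic endothelium markers was 93.1 to 109 CPM in controls, 64.8 to 81.9 with metformin and 65.8 to 69.2 with imeglimin. Fibroblast markers summed to 778 to 977, 465 to 827 and 594 to 714 CPM in the same groups. No gene of either marker list was at 0 throughout a group. In the single cells described below, Slc22a3 was highest in adipocyte-like cells at 67.3 CPM, from 15 UMIs. A cluster led by Clu, Pcdh15 and Ccl20 had 42.3 CPM and lymphatic endothelium-like cells 26.5. Fibroblast-like cells had 0, 0 and 4 UMIs in CT, Ime and Met. Sums of adipocyte markers are not given here. The part of these cell types in the result was not tested.

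Slc29a4 in acute colon had 5.31, 5.90 and 5.65 CPM in controls, 3.97, 4.54 and 3.32 with metformin and 3.85, 4.35 and 4.56 with imeglimin. No treated library reached the lowest control. The log2 change with metformin was -0.51 (SE 0.16, interval -0.86 to -0.15, adjusted p = 0.0467), and the change with imeglimin, -0.38, did not pass (interval -0.73 to -0.03, adjusted p = 0.0920). With the replicate number as a block the metformin value was -0.51 with adjusted p = 0.0688. That call was also lost with no filter (0.0727), with only both compared groups in the fit (0.0767), and without control 1 (0.0651), control 2 (0.125), control 3 (0.108), metformin 1 (0.0896) or metformin 3 (0.129). Imeglimin minus metformin was 0.13, with an interval from -0.22 to 0.49. Markers of enteroendocrine cells summed to 469 to 768 CPM in controls, 574 to 785 with metformin and 523 to 740 with imeglimin, and overlapped. Enteric neuron markers summed to 92.2 to 94.6, 29.9 to 95.2 and 68.4 to 98.1 CPM.

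Slc47a1 and Slc19a2 were higher with imeglimin. Slc47a1 had 3.36, 2.16 and 2.00 CPM in controls, 4.01, 6.01 and 4.49 with imeglimin and 3.04, 4.08 and 2.71 with metformin. All imeglimin libraries lay above all controls, while metformin libraries overlapped both. The change with imeglimin was 0.97 on the log2 scale (SE 0.25, interval 0.41 to 1.53, adjusted p = 0.0133), lost without control 2 (0.0507), control 3 (0.0539) or imeglimin 2 (0.0656). With metformin it was 0.39 (adjusted p = 0.306). Imeglimin minus metformin was 0.58, with an interval from 0.03 to 1.14, and did not pass over all genes (adjusted p = 0.282).

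Slc19a2 had 13.2, 9.39 and 11.1 CPM in acute controls, 15.3, 17.2 and 16.5 with imeglimin and 13.3, 12.2 and 11.7 with metformin. The imeglimin libraries lay above those of both other groups. The change was 0.57 on the log2 scale (SE 0.13, interval 0.28 to 0.86, adjusted p = 0.00713), and it passed in every alternative tried. With metformin it was 0.15 (adjusted p = 0.454). Imeglimin minus metformin was 0.42 (interval 0.13 to 0.71, adjusted p = 0.169). Goblet markers summed to 16731 to 18330 CPM in controls and 20058 to 21744 with imeglimin. The sum with metformin is not given here. In the colon single cells described below, goblet-like cells had 7.86, 6.57 and 9.04 CPM of Slc19a2 in CT, Ime and Met. Absorptive colonocyte-like cells had 15.4, 15.8 and 17.7. The absorptive markers Car1, Car4 and Aqp8 each overlapped between controls and imeglimin. Of the general epithelial markers, Vil1 read 560 to 654 CPM in controls, 757 to 870 with imeglimin and 844 to 1025 with metformin. Epcam overlapped, at 1220 to 1369, 1207 to 1354 and 1245 to 1609 CPM in the same order. The part of these markers was not tested.

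The other 3 genes tested in acute colon did not pass. Slc22a5 with metformin had 37.5, 44.5 and 33.8 CPM against 48.8, 44.3 and 46.1 (-0.26, interval -0.49 to -0.04, adjusted p = 0.0934), and it passed without metformin 2 (-0.37, adjusted p = 0.0293). Its imeglimin value was -0.09. Slc22a4 stood at -0.02 with metformin and 0.25 with imeglimin, and Slc6a4 at 0.19 and 0.12. Between both drugs none of the 7 genes passed (0.645% of all genes did), and 2 had an unadjusted p under 0.05. DESeq2 called none of them either.

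**Figure D2:**
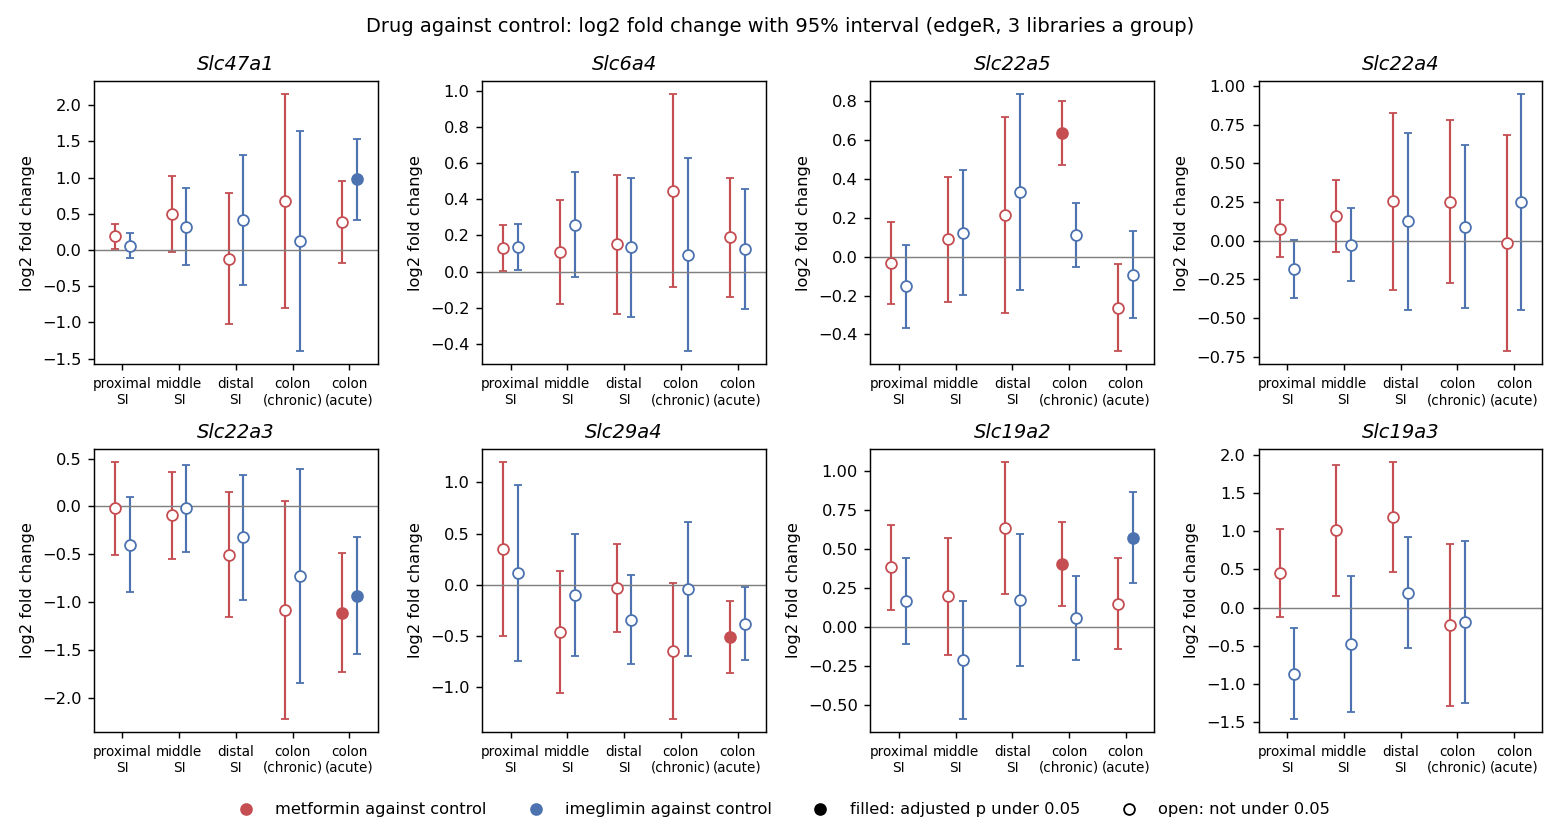
Log2 change against control, with 95% intervals from edgeR, for metformin (red) and imeglimin (blue) in each tissue; filled points passed an adjusted p of 0.05. The 7 filled points are Slc22a3 with both drugs, Slc29a4 with metformin and Slc47a1 and Slc19a2 with imeglimin in acute colon, and Slc22a5 and Slc19a2 with metformin in chronic colon.

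After 4 weeks in drinking water, the calls in colon fell on other pairs of gene and drug. Metformin raised 2 of 8 genes in chronic colon, Slc22a5 and Slc19a2 (11.6% of all genes were higher), and lowered none. Imeglimin changed 0 of 8 by edgeR (13% of all genes passed), DESeq2 called 0, and 0 had an unadjusted p under 0.05. The median log2 change of the 8 was 0.33 with metformin and 0.07 with imeglimin, against -0.05 and -0.02 over all genes.

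Slc22a5 had 30.8, 27.7 and 30.7 CPM in chronic colon controls, 44.5, 44.1 and 49.9 with metformin and 32.6, 32.1 and 31.7 with imeglimin. The metformin libraries stood clear of both other groups, at 46.2 ± 3.20 against 29.7 ± 1.77 and 32.2 ± 0.448 CPM (SD, n = 3). The change with metformin was 0.64 on the log2 scale (SE 0.07, interval 0.47 to 0.80, adjusted p = 0.000583) and passed in every alternative. With imeglimin it was 0.11 (interval -0.05 to 0.28, adjusted p = 0.362). The difference between the drugs itself passed: imeglimin minus metformin was -0.52 (SE 0.07, interval -0.69 to -0.36, adjusted p = 0.0199). It was lost with only both drug groups in the fit (0.0720) and without imeglimin 2 (0.0880), metformin 1 (0.0507), metformin 2 (0.0586) or metformin 3 (0.0681). Epithelial markers summed to 5590 to 6049 CPM in controls, 6454 to 6857 with metformin and 6278 to 7127 with imeglimin. Smooth muscle markers summed to 2868 to 3094 in controls and 1980 to 2259 with metformin. One of them, Myh11, read 1183 to 1251 CPM in controls, 907 to 913 with metformin and 837 to 1317 with imeglimin. In the single cells described below, smooth muscle-like cells had 41.6 CPM of Slc22a5 over all matrices. Absorptive colonocyte-like cells had 27.7, 33.3 and 41.3 CPM in CT, Ime and Met. Their part in the change was not tested.

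Slc19a2 in chronic colon had 9.45, 10.9 and 10.4 CPM in controls, 12.3, 12.9 and 15.6 with metformin and 11.5, 10.2 and 10.5 with imeglimin. Again all metformin libraries lay above all others. The change with metformin was 0.40 on the log2 scale (SE 0.12, interval 0.14 to 0.67, adjusted p = 0.0404). With the replicate number as a block it was 0.40 with adjusted p = 0.0594. The call was also lost with no filter (0.0638) and without control 1 (0.122), control 2 (0.0634), control 3 (0.0991), metformin 2 (0.0712) or metformin 3 (0.113). Goblet markers summed to 11313 to 14008 CPM in controls and 15373 to 21346 with metformin. The sum with imeglimin is not given here. Goblet-like single cells had less Slc19a2 than absorptive colonocyte-like ones in each matrix. Of the absorptive markers, Aqp8 read 452 to 544 CPM in controls, 553 to 732 with metformin and 260 to 289 with imeglimin. Car1 read 325 to 646, 57.7 to 110 and 94.7 to 388 in the same order. The summed epithelial markers given above for Slc22a5 were higher with both drugs in these libraries. The part of these markers was not tested. Imeglimin minus metformin was -0.35 (interval -0.61 to -0.08, adjusted p = 0.165).

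Slc22a5 was the 1 gene of 8 that was lower with imeglimin than with metformin in chronic colon, where 0.466% of all genes were lower. The 6 others did not pass against control with either drug. Slc22a3 with metformin stood at -1.08 (interval -2.22 to 0.06, adjusted p = 0.164) from 0.170, 0.393 and 0.204 CPM against 0.295, 0.668 and 0.684. Slc29a4 stood at -0.64 (adjusted p = 0.155), with metformin libraries of 2.33, 1.64 and 1.45 CPM. The highest control, 4.15 CPM, was control 3. Slc6a4 stood at 0.45 (adjusted p = 0.213), Slc47a1 at 0.68 (adjusted p = 0.501) from 0.267, 0.124 and 0.245 CPM, Slc22a4 at 0.25 and Slc19a3 at -0.23.

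**Figure D3:**
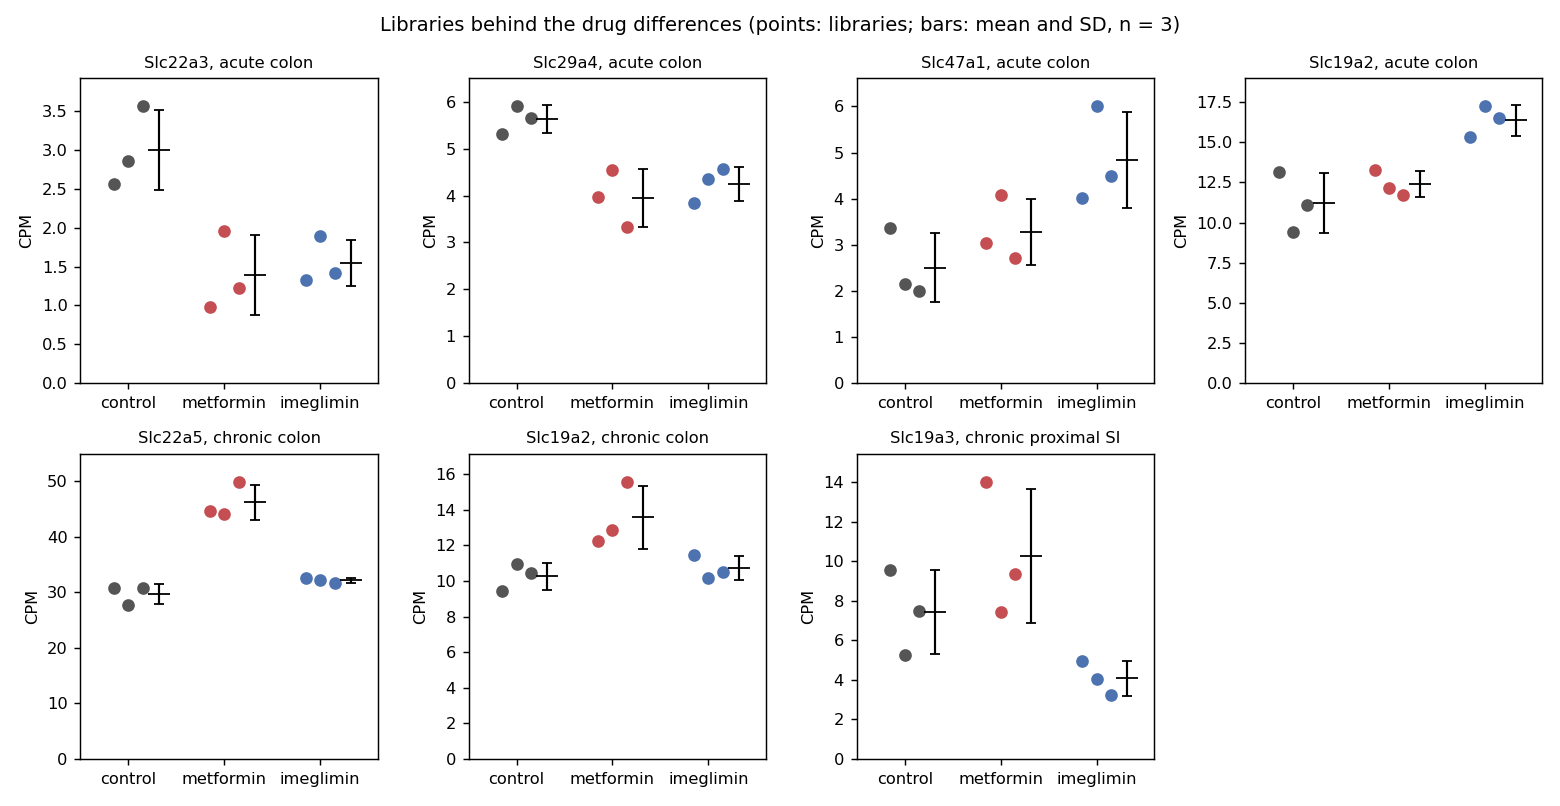
CPM in each library (points) with the mean and SD of 3 for the 7 gene and tissue pairs in which a drug comparison passed the test, in control (grey), metformin (red) and imeglimin (blue) groups. Slc22a5 in chronic colon reads 44.1 to 49.9 with metformin and 27.7 to 32.6 in the other groups.

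In proximal small intestine no gene of the 8 passed against control. The count was 0 with metformin (4.11% of all genes passed), and 0 with imeglimin (1.16%). Unadjusted p was under 0.05 for 3 and 2 genes, and DESeq2 called 1 with each drug. The DESeq2 calls were Slc19a2 with metformin (adjusted p = 0.0383) and Slc19a3 with imeglimin (adjusted p = 0.0218). Slc19a2 had 15.5, 21.7 and 19.5 CPM in controls and 26.6, 21.8 and 26.0 with metformin (0.38, edgeR adjusted p = 0.107). Slc47a1 and Slc6a4 gave 0.19 (adjusted p = 0.208) and 0.13 (adjusted p = 0.232) on the log2 scale with metformin, 0.06 and 0.14 with imeglimin.

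Slc19a3 was the 1 gene that differed between the drugs there, in a comparison where 0.434% of all genes were lower with imeglimin. It had 9.54, 5.27 and 7.46 CPM in proximal controls, 14, 7.41 and 9.35 with metformin and 4.96, 4.04 and 3.22 with imeglimin. The drug groups did not overlap. All controls lay above all imeglimin libraries and overlapped the metformin libraries. Imeglimin minus metformin was -1.33 on the log2 scale (SE 0.27, interval -1.92 to -0.73, adjusted p = 0.0451). It was lost without imeglimin 1 (0.0991), imeglimin 2 (0.105), imeglimin 3 (0.137), metformin 1 (0.168) or metformin 3 (0.124). Against control the values were 0.46 with metformin (adjusted p = 0.360) and -0.87 with imeglimin (interval -1.47 to -0.27, adjusted p = 0.138). The other 7 genes were not separated between the drugs (adjusted p from 0.150 to 0.961). The smallest of those belonged to Slc22a4, at -0.26 with an interval from -0.45 to -0.07.

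Middle and distal small intestine gave no call. In the middle, edgeR passed 0 of 8 with metformin (0.340% of all genes), 0 with imeglimin (0.0279%) and 0 between the drugs (0% of all genes). Unadjusted p was under 0.05 for 1, 0 and 2 genes, and DESeq2 called none. In distal tissue 0 of 8 passed with metformin (0.625%), imeglimin (0.0219%) and between the drugs (0.0494%). Unadjusted p was under 0.05 for 2, 0 and 2 genes there, and DESeq2 called 1, Slc19a2 with metformin (adjusted p = 0.0374). Slc19a3 again had the widest gap between the drugs. In the middle it read 2.18, 1.62 and 3.45 CPM with metformin and 1.27, 0.786 and 0.539 with imeglimin (-1.49, interval -2.38 to -0.60, adjusted p = 0.241). Distal libraries read 1.01, 1.51 and 1.28 with metformin and 0.675, 0.417 and 0.790 with imeglimin (-1.0, interval -1.72 to -0.29, adjusted p = 0.483). In both tissues the drug groups did not overlap, and neither difference passed over all genes. Slc19a2 in distal tissue read 9.74, 10.9 and 8.58 CPM in controls and 11.7, 18.8 and 15.5 with metformin (0.63, edgeR adjusted p = 0.165).

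Whether a drug's change differed between the 4 chronic segments was tested directly, as an interaction. It passed for 0 of 8 genes with metformin (4.03% of all genes), with 1 at an unadjusted p under 0.05, and for 0 with imeglimin (2.96%), with 0. DESeq2 called none in either. The 1 was Slc22a5 under metformin, with unadjusted p = 0.0390 and adjusted p = 0.257. So the Slc22a5 change of chronic colon is not shown to be particular to colon.

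Around these carriers, 7 lists of related genes, 82 genes in all, were followed in the same fits. Their counts are read against the shares of all genes that passed. In chronic colon 11.6% of all genes were higher and 8.04% lower with metformin, and 7.97% higher and 5.07% lower with imeglimin. In acute colon the shares were 11.3% and 8.37% with metformin, and 18.1% and 15.1% with imeglimin. Thiamine use covers the kinase, pyrophosphatase, mitochondrial carrier and the enzymes that need thiamine pyrophosphate. In chronic colon, metformin raised 5 of its 13 tested genes and lowered 0 (11.6% and 8.04% of all genes; list median 0.24, all genes -0.05). Pdhb, a subunit of pyruvate dehydrogenase, went from 71.0 to 117 CPM (0.72, adjusted p = 0.000583), and Pdha1, its partner, from 236 to 351 (0.57). Imeglimin raised 4 of the 13 there and lowered 1, with Pdha1 at 0.40 and Bckdha, a subunit of the branched-chain ketoacid dehydrogenase, at -0.47. After the single dose, metformin raised 3 and lowered 3 of 13, and imeglimin raised 1 and lowered 4. Thtpa, which cleaves thiamine triphosphate, fell with both, from 18.8 CPM to 12.5 with metformin (-0.58, adjusted p = 0.00289) and to 11.4 with imeglimin (-0.69, adjusted p = 0.000619).

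Serotonin and monoamine genes covered synthesis, storage, degradation and receptors. None of 12 tested passed in acute colon with either drug. In chronic colon, metformin raised 3 of 12 and lowered 1 (11.6% and 8.04% of all genes; list median -0.31). Maoa, the monoamine oxidase that degrades serotonin, went from 518 ± 10.4 to 1110 ± 115 CPM (1.1, adjusted p = 0.000343). With imeglimin Maoa was the 1 gene to pass, at 844 ± 134 CPM (0.70). Slc6a4 itself did not pass with either drug in any tissue.

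Carnitine genes covered synthesis, acyl transfer and transport. After the single dose, metformin lowered 3 of 10 and raised 0 (8.37% and 11.3% of all genes), and imeglimin lowered 2 (15.1%). Crot, a carnitine acyltransferase of peroxisomes, fell from 43.1 to 27.4 CPM with metformin (-0.65, adjusted p = 0.000848) and by 0.82 on the log2 scale with imeglimin. Slc16a9, a carnitine efflux carrier, changed by -1.2 and -0.77. In chronic colon with metformin, 4 of 9 tested genes rose and 0 fell (11.6% and 8.04% of all genes; list median 0.30). Aldh9a1, an enzyme of carnitine synthesis, went from 49.5 to 69.3 CPM (0.49) and Crat, the mitochondrial acetyltransferase, changed by 0.42. Imeglimin raised 1 there, Aldh9a1 (0.48).

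Other carrier lists held few calls. Of the other SLC22 carriers, metformin lowered 1 of 5 tested in acute colon, Slc22a23 (-0.35), and in chronic colon raised 2 of 6, Slc22a18 (0.45) and Slc22a23 (0.35), and lowered 1. Of the nucleoside and extrusion carriers, Slc29a2 rose with metformin (1.15) and imeglimin (0.75) in acute colon, and Slc29a3 fell with both (-0.42 and -0.57). In the same list imeglimin lowered 2 of 5 and metformin 1. In chronic colon metformin lowered 1, Slc29a1 (-0.24). Choline and polyamine carriers fell in acute colon in 2 of 9 with metformin, Slc44a2 (-0.46) and Slc44a5 (-1.38), and in 3 with imeglimin. Slc18b1 was the 1 of the list to rise in chronic colon with metformin (0.77). Of 9 efflux pumps, Abcc6 fell in acute colon with metformin (-1.32) and imeglimin (-0.66), where 3 of the 9 fell with imeglimin, Abcc1 (-0.47) among them. In chronic colon with metformin, Abcc1 fell (-0.68) and Abcc2 rose (0.72). Imeglimin also raised Abcc2 there (0.89). No list held a call between the drugs in either colon set, and none in middle or distal tissue in any comparison. In proximal tissue, where 1.65% of all genes were higher with metformin, it raised 2 of 14 thiamine genes, Tkt (0.34) and Pdha1 (0.34), and 1 gene each of the carnitine (Crat, 0.29) and nucleoside lists (Slc28a3, 0.41). Imeglimin lowered Ddc (-0.44; 0.763% of all genes were lower), and Abcc2 (-0.49) was lower with imeglimin than with metformin.

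Along the gut of controls, several lists split. Between proximal tissue and colon, where 28.1% of all genes were higher and 28.4% lower, thiamine genes were higher in 6 and lower in 2 of 14, carnitine genes in 6 and 4 of 10, serotonin genes in 6 and 4 of 13, efflux pumps in 4 and 3 of 9, nucleoside and extrusion carriers in 3 and 3 of 7, other SLC22 carriers in 2 and 4 of 8, and choline and polyamine carriers in 1 and 5 of 9. Against distal tissue (15.9% and 12.8% of all genes), proximal was higher in 2 and lower in 2 of the thiamine genes, in 4 and 2 of the carnitine, 7 and 2 of the serotonin and 2 and 2 of each of the efflux, nucleoside and other SLC22 lists. Abcc2, an apical efflux pump, had 701 CPM in proximal tissue and 3.77 in colon. The nucleoside carrier Slc28a2 had 661 and 2.99 CPM, and Aldh9a1 542 and 49.5. On the other side, the serotonin receptor Htr4 had 1.32 CPM in proximal tissue and 57.0 in colon. Slc44a4, a carrier of thiamine pyrophosphate, had 122 CPM in proximal and 349 in distal tissue.

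Over the means of the 15 groups, the genes whose log2 CPM ran most like each transporter were listed by Pearson r, as a description over points that share tissue and controls. Slc47a1 ran most like Pgrmc1 (0.996), Gchfr (0.994) and Ppp2r5d (0.993). Among the genes nearest to Slc29a4 were Fdft1 (0.956) and Srebf2 (0.949). For Slc22a4 the nearest were AA986860 (0.996), Mogat2 (0.995) and Sytl3 (0.995), and for Slc22a5 Nckap5 (0.985), Tcn2 (0.984) and Mocos (0.984). Among those nearest to Slc6a4 were Cfb (0.994) and Map3k2 (0.989), and Slc22a3 was nearest to Ugt2b36 (0.971), Vnn1 (0.966) and Slc3a1 (0.964). The thiamine transporter Slc19a3 was nearest to Cyp4a10 (0.969), Slc6a3 (0.964) and Onecut2 (0.959), and Slc19a2 to Galt (0.894), Tmem184b (0.888) and Gpr137 (0.887). Within the set, r was 0.971 between Slc22a4 and Slc22a5, which are neighbours on chromosome 11, and 0.972 between Slc22a4 and Slc47a1. Slc29a4 had r of -0.807 with Slc19a3 and -0.795 with Slc6a4.

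In the single cells of colon, 25634 cells were kept. The CT, Ime and Met matrices held 7994, 4722 and 12918 of them, with median depths of 2346, 1358.5 and 5501.5 UMIs. They shared 0 cell barcodes in full, and 625 to 1686 barcodes of each pair of matrices agreed in their first 16 bases. With 1 sample there is no test, and intervals cover counting error only. Clustering without the transporters gave 19 classes named from markers and 14 clusters left unnamed. Over all matrices Slc22a5 had 8377 UMIs, Slc6a4 7633, Slc19a2 3483, Slc29a4 758, Slc22a4 353, Slc22a3 159, Slc19a3 100 and Slc47a1 65. Slc22a2 had 0. Some clusters were led by genes of other organs, 1 of 117 cells by the pancreatic genes Rbpjl, Ctrc and Pnliprp1 and 1 of 102 cells by Tgm4, Tcaf3 and Pbsn.

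Slc29a4 was concentrated in 2 small classes. Enteroendocrine-like cells, the hormone and serotonin producing cells of the epithelium, had 54.0 CPM (95% interval 48.9 to 59.4), from 415 UMIs in 404 cells. They held 54.7% of the gene's UMIs and 2.74% of all UMIs. Enteric neuron-like cells had 54.1 CPM (44.6 to 65.1), from 113 UMIs in 20 of 114 cells. Of those, 103 UMIs were in Met, and without that matrix the level was 23.4 CPM (11.2 to 43.1). Absorptive colonocyte-like cells, the main surface epithelium, had 0.352 CPM (0.226 to 0.524), and 0.153 (0.00388 to 0.855) without Met. A UMI of the gene was seen in 32.9% of enteroendocrine-like cells (median depth 4021) and 0.538% of absorptive ones (median depth 13039). When cells were thinned to 1000 UMIs, leaving out 34 and 65 shallower cells, the shares were 9.49% and 0.0281%. Goblet-like cells had 3.33 CPM (2.57 to 4.25), a level that moved to 1.81 with finer clusters and to 9.57 (7.03 to 12.7) without Met. That level was no higher than in B cell-like cells, at 3.53 CPM (1.69 to 6.49) from 10 UMIs. Lymphatic endothelium-like cells had 6.39 CPM (3.40 to 10.9) from 13 UMIs. By matrix, enteroendocrine-like cells had 77.9 CPM (61.0 to 98.1) in CT, 64.9 (38.4 to 103) in Ime and 50.1 (44.8 to 55.9) in Met, at median depths of 3455.5, 1507 and 12999.5. With at least 1000 UMIs per cell the level over all matrices was 84.9 CPM.

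Slc6a4 was spread over the epithelium. Stem and cycling epithelium-like cells had 54.7 CPM (51.7 to 57.9) over all matrices. By matrix they had 37.3 CPM in CT, 37.4 in Ime and 60.3 in Met, at median depths of 4595, 2907 and 8944 UMIs. Unnamed clusters led by Htr4, Zan and Cftr and by Gsdmc4, Gsdmc2 and Gsdmc3 had 60.2 (52.4 to 68.9) and 54.3 (51.8 to 56.9), the latter 33.4 without Met. Enteroendocrine-like cells had 27.1 CPM (16.6 without Met) and tuft-like cells 25.3, absorptive colonocyte-like cells 18.5 (17.5 to 19.6) and goblet-like cells 6.05. B cell-like cells, which should lack it, had 3.53 CPM (1.99 without Met), with a UMI in 0.590% of cells at a median depth of 1155. The share in stem and cycling cells was 30.4% at a median depth of 5278, and 5.19% against 0.364% after thinning to 1000 UMIs. With the top 5% of doublet scores left out, Slc6a4 went from 13 to 3.71 CPM in smooth muscle-like, from 10.3 to 5.24 in fibroblast-like and from 12.9 to 3.34 in T and NK cell-like cells. In stem and cycling cells it was 49.7 without those cells and 40.5 with at least 1000 UMIs.

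Slc22a5 was broad. Interstitial cell of Cajal-like cells, pacemakers of gut muscle, had 64.8 CPM (44.9 to 90.5), tuft-like cells 45.4 (38.9 to 52.6), smooth muscle-like cells 41.6 and absorptive colonocyte-like cells 40.1 (38.6 to 41.6). Goblet-like cells had 14.6 (13 to 16.4) and plasma cell-like cells 12.3. Absorptive cells held 2731 of its 8377 UMIs. By matrix those cells had 27.7 CPM (23.3 to 32.8) in CT, 33.3 (25.1 to 43.4) in Ime and 41.3 (39.7 to 42.9) in Met. Their median depths were 5825, 5935.5 and 16187 UMIs, and they made up 7.01%, 4.66% and 19.9% of cells. Over whole matrices Slc22a5 had 23.6, 29.8 and 31.0 CPM in the same order.

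Slc19a2 had its highest level over a named class in absorptive colonocyte-like cells, 17.5 CPM (16.5 to 18.5). Fibroblast-like cells followed at 14.3, stem and cycling cells at 14 and enteroendocrine-like cells at 13.5, and goblet-like cells had 8.66. By matrix the absorptive level was 15.4, 15.8 and 17.7 CPM in CT, Ime and Met. The remaining genes were sparse. Slc22a4 reached 117 CPM (76.1 to 171) in adipocyte-like cells, from 26 UMIs in 72 cells, and 1.41 in absorptive cells. Without Met these levels were 250.9 (130 to 438) and 2.15 CPM. Slc22a3 reached 67.3 CPM in adipocyte-like cells (15 UMIs, and 105 CPM from 5 UMIs without Met), 42.3 in an unnamed cluster led by Clu, Pcdh15 and Ccl20 (25 UMIs) and 26.5 (19.9 to 34.6) in lymphatic endothelium-like cells, which held 54 of its 159 UMIs. By matrix those 54 were 9 in CT, 0 in Ime and 45 in Met. Slc47a1 had 28 of its 65 UMIs in fibroblast-like cells, at 2.82 CPM. Of those 28, 27 were in Met, and without it the level was 0.508 CPM. Slc19a3 had 19 of 100 in stem and cycling cells, which held 8.01% of all UMIs, at 0.845 CPM. Its level was higher in some classes with fewer of its UMIs. Among them were pericyte-like cells at 13.9 CPM (4 UMIs) and lymphatic endothelium-like cells at 3.93 (8 UMIs).

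**Figure D4:**
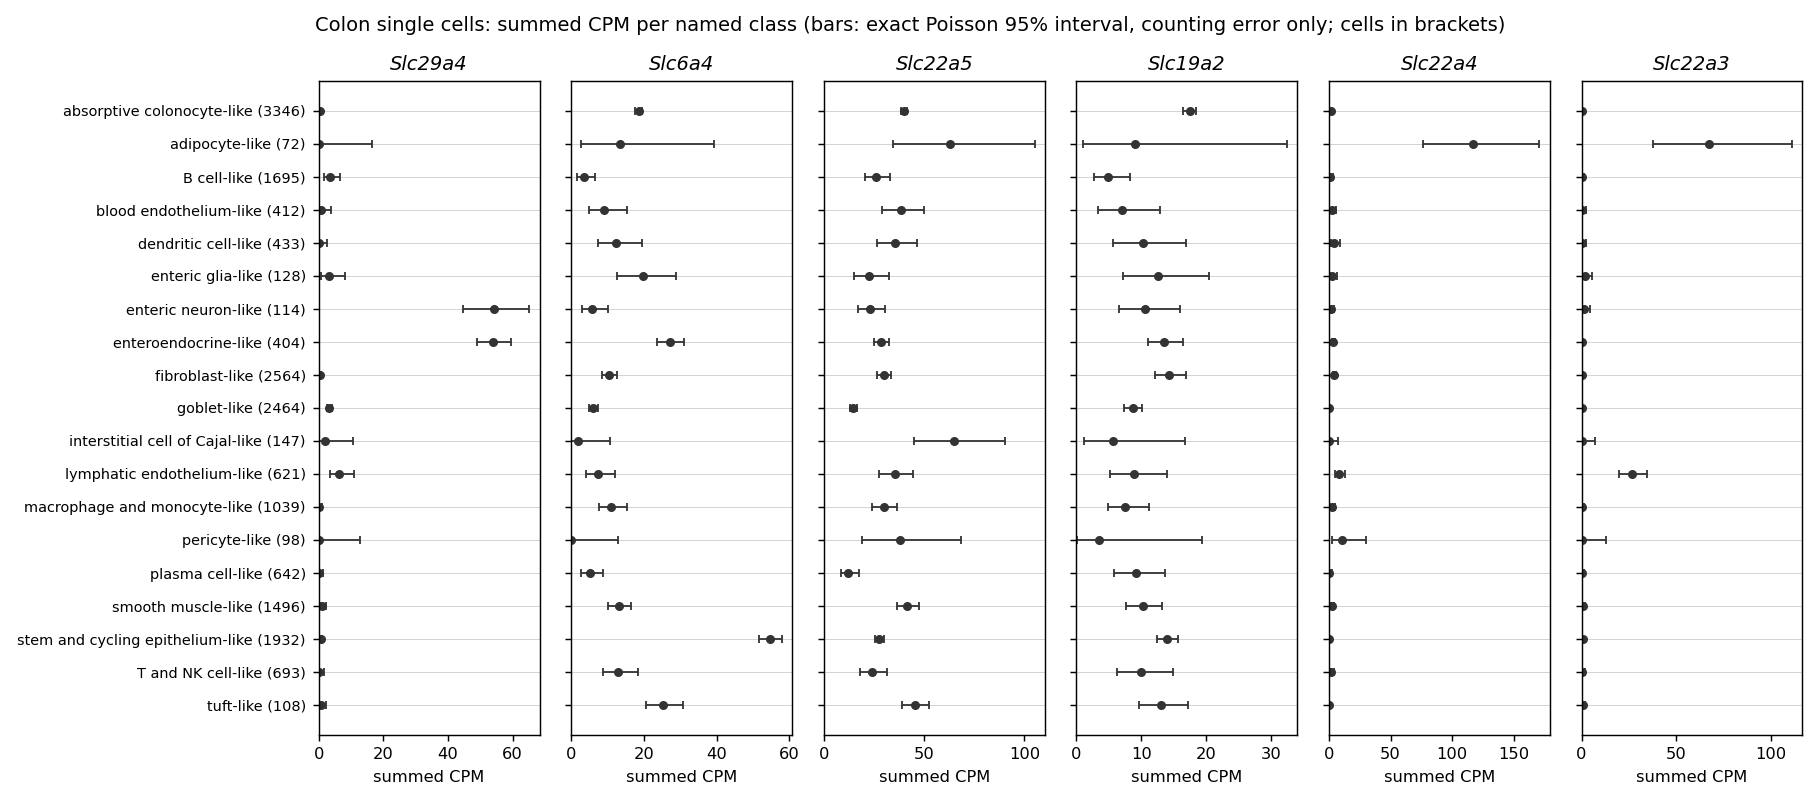
Summed level (CPM) of 6 transporters in the 19 named cell classes of colon, all matrices together, with exact Poisson 95% intervals and cell numbers in brackets. Slc29a4 is at 54.0 and 54.1 CPM in enteroendocrine-like and enteric neuron-like cells, and Slc6a4 at 54.7 CPM in stem and cycling epithelium-like cells.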

How the data were processed

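Counts were the authors' deposited whole-number reads per gene symbol, 1 table for each of 5 tissue sets; single-cell values were deposited UMI counts in 3 matrices. Per the labels' protocols, total RNA was extracted with RNeasy and sequenced from TruSeq Stranded mRNA libraries, and fixed colon cells were profiled with 10x probe sets. FastQC, Trimmomatic, HISAT2, StringTie, Cell Ranger and the builds mm10 and GRCm39 are listed in the submitters' processing notes without roles; a matrix header names Cell Ranger 9.0.0. Strand use in counting and the annotation are not given in the sources used here. Reads of Slc22a3 (with antisense AC132106.1 and Plg), Slc6a4 (with antisense Gm12343) and Slc19a3 (with Gm7539) may therefore include overlapping genes, and the paralogs Slc22a4, Slc22a5 and Slc22a21 may share reads.

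Drug effects were tested with edgeR 4.0.16 (R 4.3.3), quasi-likelihood F test, TMM, filterByExpr, in 1 fit per tissue set of 9 libraries. Segments were tested in 1 fit of all 36 chronic libraries. P-values were Benjamini-Hochberg adjusted over all genes, called under 0.05. CPM used TMM over 45 libraries; CPM per kilobase used GENCODE vM21 exon unions. The scripts were tested on simulated data. Replicates differed beyond sampling noise (chi-square per gene 13.4 or more). The labels' batch tag equals the replicate number, so it served as a block in an alternative. Between libraries of 1 number, the mean r of deviations from group means was -0.132 to 0.0687 over the sets. In acute colon, proximal, middle, distal and chronic colon sets, 1, 0, 2, 3 and 3 of 9 such pairs exceeded 0.1. Chronic colon had 0.0687, against -0.0344 for libraries of different numbers. Distal tissue had -0.132 against 0.0658. A batch holds 1 library of each group in each set, so groups were compared within batches only through that block.

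Cells with at least 500 UMIs and 200 genes were clustered with scanpy 1.11.5 (2000 variable genes without the transporters, 15 neighbours, Leiden resolution 1). A class was named where at least 3 of its markers were detected and raised. Scrublet's automatic threshold called 0 doublets and did not work, so no doublet was removed. Matrices are tied to treatments by name. Shares and sums have exact 95% intervals, and a floor is 3 counts. Every tested transporter is covered in each comparison by value, range or count, but not each is named there. Up to 2 genes with the smallest p were named per list and comparison. The 3 nearest genes by likeness were taken among those at 5 CPM or more. The transporters and lists were chosen with earlier results of these data known. Some genes that the naming rule selects are not reported here.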

Additional observations from a re-analysis of the deposited data

How the results depend on the processing

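Of 102 transporter results that passed the test, 85 passed in every alternative run for them, and 0 changed direction. The alternatives were RLE scaling, no filter, DESeq2, replicate block, smaller fits, acute colon controls and each library left out. The 102 pool drug comparisons with segment pairs. Segment pairs within the drug groups were run without smaller fits, acute colon controls or a library left out. Of the drug calls, only Slc19a2 with imeglimin in acute colon and Slc22a5 with metformin in chronic colon passed in every alternative. Of 175 that did not pass, 11 passed in some. In acute colon, the 2 transporters called with metformin became 1 with no filter, with the replicate block and with only the compared groups, and 0 to 3 when 1 library was left out. The 3 called with imeglimin became 1 to 3. DESeq2 called 1 instead of 0 in proximal tissue with metformin and with imeglimin and in distal tissue with metformin, and 4 instead of 2 between proximal and middle tissue under imeglimin. In proximal tissue the 1 call between drugs became 0 to 1. In chronic colon, the 2 with metformin became 1 with no filter and with the replicate block, and 1 to 2 with a library left out. The 1 between drugs became 0 in the fit of only those groups and 0 to 1 with a library left out. In controls, proximal against middle went from 4 to 2 with the 12 control libraries alone (2 to 4 with a library left out), and middle against distal from 4 to 1 (1 to 5). The cause was not tested beyond the smaller number of libraries. The replicate block moved no other count of calls by over 1.5 times.

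Counts over all genes moved by over 1.5 times in some fits. DESeq2 called more than edgeR: between the drugs 743 against 118 in acute colon, 795 against 189 in proximal, 309 against 0 in middle, 218 against 9 in distal tissue and 1292 against 114 in chronic colon. With metformin it called 1521 against 710, 462 against 61 and 949 against 114 in proximal, middle and distal tissue, and with imeglimin 814 against 200, 926 against 5 and 274 against 4. For the interactions it called 1484 against 809 and 1281 against 594. The replicate block gave 470, 23 and 17 with metformin and 80 (proximal) and 1 (distal) with imeglimin in those tissues. Between the drugs it gave 19 in acute colon, 94 in proximal and 3 in distal tissue. Fits of only 2 groups gave 28, 392, 0 and 17 between the drugs in acute colon, proximal, distal tissue and chronic colon, 10 and 16 with metformin in middle and distal tissue, and 30 and 2 with imeglimin in proximal and distal tissue. No filter gave 74 in acute and 62 in chronic colon between the drugs, 74 in distal tissue with metformin and 381 for the imeglimin interaction. The 12 controls alone gave 585 against 1345 between proximal and middle and 1197 against 1999 between middle and distal tissue. The planned removal of called doublets was not run, since none were called; leaving out the top 5% of scores, or 1 matrix, was chosen after seeing the data. Of 70 single-cell levels, the top scores left out moved 15 beyond their counting interval, a minimum of 1000 UMIs 15, resolution 2 moved 10, and leaving out Met, Ime or CT 33, 1 and 2. Ranking likeness by Spearman's rho kept 0 of the 3 named genes, except 1 each for Slc29a4 and Slc47a1. Depth limits Slc22a2 everywhere, and Slc47a1 and Slc19a3 in colon.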
